A study of Homo sapiens with 9 samples.

Results

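The genes described here are those of oxidative phosphorylation in human BJAB cells, from both genomes that encode it. They were chosen by symbol among protein-coding genes: the prefixes NDUFA, NDUFB, NDUFC, NDUFS, NDUFV, SDHA to SDHD, UQCR, COX4 to COX8 and ATP5, and the 13 protein-coding genes of the mitochondrial genome, whose symbols begin with MT-. The rule used no measured value. It took 116 of the 57500 genes counted, 13 mitochondrial and 103 nuclear. The nuclear genes comprised 88 subunits, 12 assembly factors with NDUFAF or SDHAF symbols, the inhibitor ATP5IF1 and 2 readthrough genes. CYC1, the cytochrome c1 subunit of complex III, carries none of these prefixes and is not among them.

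BJAB cells are an established line of human B cells, described in the labels as an untreated Burkitt lymphoma tumour. RNA was sequenced from 3 libraries of cells carrying the short isoform of TACI (TACI short), 3 of cells carrying the long isoform (TACI long) and 3 of the parental line. TACI, the product of TNFRSF13B, belongs to the receptors through which the cytokines BAFF and APRIL act on B cells. The titles speak of stable transfection and the design text of transduction, and whether each line is a clone is not given in the sources used here. The cells were sorted before extraction, and the RNA was polyadenylated. Since separate cultures are not stated for the 3 libraries of a group, p-values cover only the spread among these libraries, and this spread may be technical.

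Oxidative phosphorylation passes electrons from NADH and succinate through complexes I to IV of the inner mitochondrial membrane to oxygen, and complex V (ATP synthase) uses the proton gradient they build to make ATP. Complex II is encoded wholly in the nucleus, while complexes I, III, IV and V mix nuclear subunits with a core made inside the mitochondrion. Mitochondrial genes are copied as long transcripts from both strands by a dedicated polymerase, cut free at the tRNAs between them and given poly(A) tails, so their levels depend on transcription, processing and stability. B cells are known to raise oxidative phosphorylation when they are activated.

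Library totals lay between 40322136 and 50079203 counts. TNFRSF13B, the gene of the introduced receptor, had 2964, 2965 and 2655 CPM (its count scaled to the library's total) in TACI short, 691, 704 and 738 CPM in TACI long and 28.8, 15.2 and 14.6 CPM in the parental line, so the groups were apart in the labelled direction. All 6 B-cell markers examined were present, with a summed level of 2963 to 3313 CPM in the TACI lines and 3681 to 3807 CPM in the parental line. TACI short replicates 2 and 3 stood apart from the other 7 libraries in the summed level of 8 myeloid markers, 125 and 121 CPM against 11.5 to 28.8 CPM. CSF1R and FCER1G led this sum, 6 of the 8 markers reached 1 CPM in some library, and CD68 and AIF1 stayed under it. CSF1R was raised in TACI short replicate 1 as well, at 20.3 CPM against at most 11.4 CPM in the TACI long and parental libraries. The collagen genes COL1A1 and COL1A2, markers of fibroblasts, were also raised in TACI short replicates 2 and 3. COL1A1 had 10.99 and 10.2 CPM there against at most 3.24 CPM in the other 7, and COL1A2 had 3.99 and 4.11 CPM against at most 1.44 CPM. DCN, another fibroblast gene of the same list, was not raised in these replicates. It had 2.43, 2.01 and 2.44 CPM in TACI short, 0.354 to 0.548 CPM in TACI long and 2.76 to 3.02 CPM in the parental line. The whole list of 6 epithelial and fibroblast markers, led by EPCAM, summed to 83.1 to 91.02 CPM in TACI short, 114 to 120.3 CPM in TACI long and 101 to 103 CPM in the parental line. The part of these differences in the results that follow was not tested, and for the genes described against the parental line, calls lost without both libraries are named. A change in a bulk library may reflect fewer cells of a type or less RNA per cell, which cannot be told apart.

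Of the 116 genes, 108 had enough counts for testing, all 13 mitochondrial and 95 nuclear. The other 8 were COX4I2, COX6A2, COX7A1, COX7B2, COX8C, ATP5MGL, NDUFC2-KCTD14 and ATP5MF-PTCD1, none of which had more than 5 counts in a library. The first 5 of these are paralogs of widely used complex IV subunits that are known from lung, muscle or testis. Calls rest on edgeR's quasi-likelihood test at a Benjamini-Hochberg adjusted p under 0.05 over all 16672 genes tested. Fold changes use TMM scaling, whereas CPM values are counts over the column total. Both comparisons with the parental line share its 3 libraries.

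The mitochondrial genes are first set out by how their annotated sequences end. Several of them lack a full stop codon in the genome and gain it from the poly(A) tail. The last 30 bases of 8 annotated genes follow, 5′ to 3′ in the sense of the mRNA, from GENCODE 29 (hg38). Capitals mark the stop codon, or the part of it that the genome encodes.
MT-ND1: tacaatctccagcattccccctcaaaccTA
MT-ND2: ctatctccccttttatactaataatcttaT
MT-CO3: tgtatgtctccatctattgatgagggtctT
MT-ND3: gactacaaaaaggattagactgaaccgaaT
MT-CYB: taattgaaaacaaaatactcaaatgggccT
MT-ND4: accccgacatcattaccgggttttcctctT
MT-CO1: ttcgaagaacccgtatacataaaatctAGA
MT-ATP6: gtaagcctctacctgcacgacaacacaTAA
The first 6 end in an incomplete codon of 1 or 2 bases. MT-CO1 and MT-ATP6 stand for the 7 genes annotated with a complete one, which also include MT-CO2, MT-ATP8, MT-ND4L, MT-ND5 and MT-ND6. These are ends of annotated genes, and not all of them are ends of transcripts. MT-ATP6 ends on base 9207, which is also the first base of MT-CO3, so separated transcripts cannot both keep it. MT-ATP8 and MT-ND4L end inside the next gene.

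In TACI short, transcripts of the mitochondrial genome were lower, by amounts that differed widely between genes. Against the parental line, 11 of 13 fell and 0 rose, with a median log2 change of -0.94, and 8 fell by at least 1.5-fold without overlap of the libraries. Across all genes tested 62.6% were called in this comparison, 31.1% lower and 7.7% lower by at least 1.5-fold, 24.4% were lower without overlap, and the median was 0.03. Against TACI long all 13 fell, 11 by at least 1.5-fold, with a median of -1.18, and the libraries of the lines overlapped for none of the 13. There 68.8% of all genes were called, 33.6% lower and 11.1% lower by at least 1.5-fold, and 27.8% were lower without overlap. In TACI long against the parental line, 7 rose and 0 fell, with a median of 0.29, where 51.1% of all genes were called, 25.2% as higher.

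MT-ND2, a membrane subunit of the proton-pumping arm of complex I (chromosome MT, bases 4470 to 5511, plus strand), fell furthest. It had 650.1, 756 and 739 CPM in TACI short, 2541, 2189 and 2206 CPM in TACI long and 1535, 1748 and 1949 CPM in the parental line. The groups did not overlap, with TACI short lowest and TACI long highest. Its log2 change was -1.42 ± 0.10 in TACI short against the parental line (SE, edgeR adjusted p = 3.98e-06), -1.83 ± 0.10 against TACI long (adjusted p = 6.08e-07) and 0.41 ± 0.10 in TACI long against the parental line (adjusted p = 0.00817).

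MT-CO1, the catalytic core of cytochrome c oxidase, is encoded just downstream (bases 5904 to 7445, plus strand) and changed much less in TACI short. It had 4508, 5219.7 and 4896 CPM in TACI short, 8445, 7289 and 7628 CPM in TACI long and 4447, 5267 and 5831 CPM in the parental line. TACI short and the parental line overlapped, while every TACI long library was above both. The log2 change in TACI short against the parental line was -0.22 ± 0.10 (edgeR adjusted p = 0.0873, not called), and it was 0.59 ± 0.10 in TACI long (adjusted p = 0.00120), the greatest rise of any mitochondrial gene there. With the replicate number as a block and only these groups compared, MT-CO1 and MT-ND4 were called lower in TACI short, at adjusted p = 0.0116 and 0.0418. MT-CO1 was also called lower with no filter and when parental replicate 1, TACI long replicate 1 or TACI long replicate 3 was left out.

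MT-CO3, the third mitochondrial subunit of the oxidase (bases 9207 to 9990, plus strand), had 1991, 2244 and 2114 CPM in TACI short, 4824, 4148 and 4184 CPM in TACI long and 3255, 3771 and 4106 CPM in the parental line. All 3 groups were apart, with TACI short lowest. The log2 change was -0.94 ± 0.09 in TACI short against the parental line (edgeR adjusted p = 8.99e-06) and 0.24 ± 0.09 in TACI long (adjusted p = 0.0420). MT-CO2, which carries the copper centre that takes electrons from cytochrome c, had 1803, 2104 and 2007 CPM in TACI short, 2954, 2443 and 2521 CPM in TACI long and 2372, 2757 and 2986 CPM in the parental line. It was lowest in TACI short, and the other groups overlapped. Its log2 change was -0.59 ± 0.10 in TACI short (adjusted p = 0.00154) and -0.03 ± 0.10 in TACI long (adjusted p = 0.835).

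**Figure D1:**
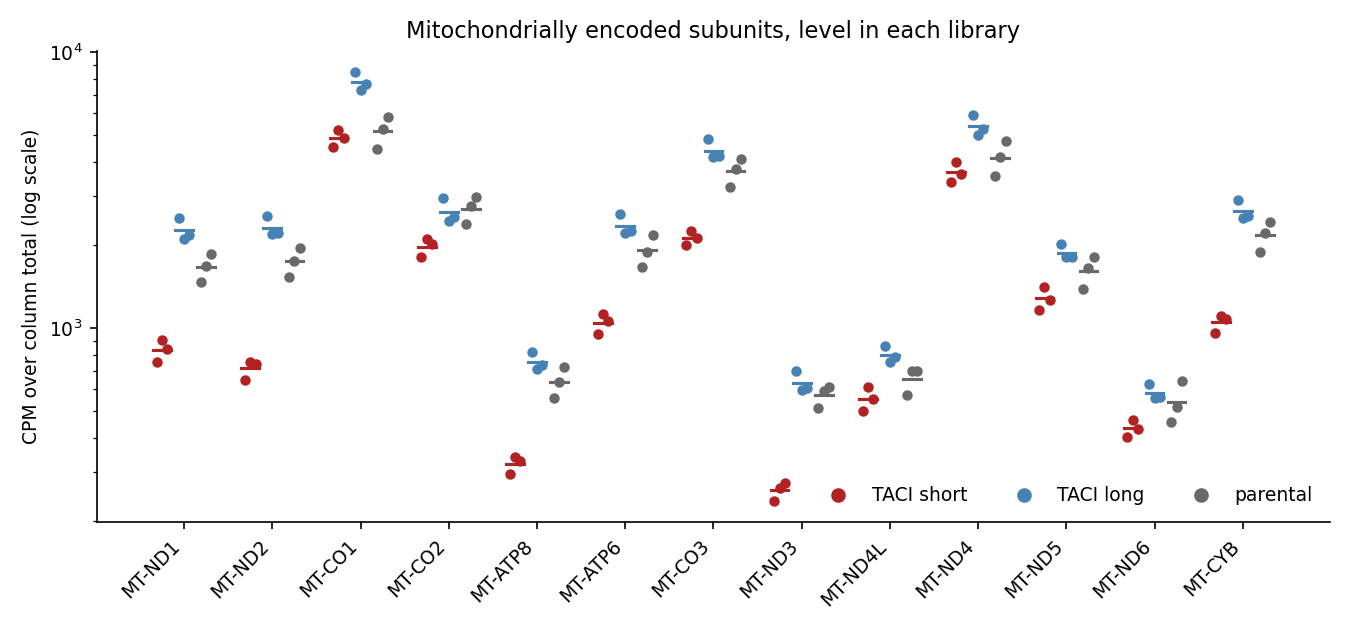
Level of each mitochondrially encoded gene, in CPM over the column total on a log scale, in 3 TACI short, 3 TACI long and 3 parental libraries, with the genes in the order of their start on the genome. Points are libraries and lines are group means; TACI short lies below both other groups for 8 genes, while its MT-CO1 points, 4508 to 5220, lie within the parental range of 4447 to 5831.

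The remaining complex I genes differed in the size of their fall. MT-ND1, a core membrane subunit near the quinone site, had 754, 908 and 843 CPM in TACI short, 2500.5, 2108 and 2175 CPM in TACI long and 1473, 1678 and 1854 CPM in the parental line, a log2 change of -1.13 ± 0.10 in TACI short against the parental line. MT-ND3, which contributes to the same region, had 237, 264 and 274 CPM in TACI short, 696, 599 and 608 CPM in TACI long and 514, 591 and 612 CPM in the parental line, a log2 change of -1.28 ± 0.08. For both, no TACI short library reached the parental range. The antiporter-like subunits MT-ND4 and MT-ND5 changed by -0.31 ± 0.11 (edgeR adjusted p = 0.0505, not called) and -0.47 ± 0.10 (adjusted p = 0.00531) in TACI short, and MT-ND4L by -0.37 ± 0.09 (adjusted p = 0.00630). The calls of MT-ND5 and MT-ND4L were lost without TACI short replicates 2 and 3 (adjusted p = 0.0601 and 0.0603), and that of MT-ND4L also with upper-quartile factors (adjusted p = 0.0549) and with column totals alone, where its log2 change was -0.242 (adjusted p = 0.0945). MT-ND4 was called lower with DESeq2, with no filter, and when any single parental or TACI long library was left out. Some TACI short libraries lay within the parental range for each of these 3 genes.

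MT-ND6 is the only mitochondrial gene of the 13 encoded on the other strand (bases 14149 to 14673, minus strand). It had 402, 466 and 431 CPM in TACI short, 629, 559 and 563 CPM in TACI long and 456, 519.6 and 643 CPM in the parental line, so that TACI short and the parental line overlapped. Its log2 change in TACI short was -0.45 ± 0.13 (edgeR adjusted p = 0.0204), and the call was lost in 8 of 20 alternatives. These were the replicate number as a block (adjusted p = 0.0531), the block with only these groups compared (0.0503), only these groups compared (0.0616), upper-quartile factors (0.0548), column totals alone (0.0810), TACI short replicate 1 left out (0.0605), replicate 3 left out (0.0644) and replicates 2 and 3 left out (0.132). The libraries do not keep the strand, so reads of MT-ND6 and of RNA antisense to it cannot be told apart.

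MT-CYB, cytochrome b and the only mitochondrial subunit of complex III, had 961, 1109 and 1079 CPM in TACI short, 2902, 2501 and 2545 CPM in TACI long and 1880.3, 2214 and 2428 CPM in the parental line. TACI short was lowest and TACI long highest without overlap. The log2 change was -1.18 ± 0.10 in TACI short against the parental line (edgeR adjusted p = 1.74e-05) and 0.29 ± 0.10 in TACI long (adjusted p = 0.0437). The ATP synthase genes MT-ATP6, whose product forms the proton channel, and MT-ATP8 changed by -1.0003 ± 0.11 and -1.12 ± 0.10 in TACI short against the parental line. In TACI long they changed by 0.29 ± 0.11 and 0.24 ± 0.10, with adjusted p = 0.0562 and 0.0779, and were not called, although both were with DESeq2, with no filter, without parental replicate 3 and without TACI long replicate 2. MT-ATP8 and MT-ATP6 overlap in the genome and share a transcript, as do MT-ND4L and MT-ND4, so their values are not independent.

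**Figure D2:**
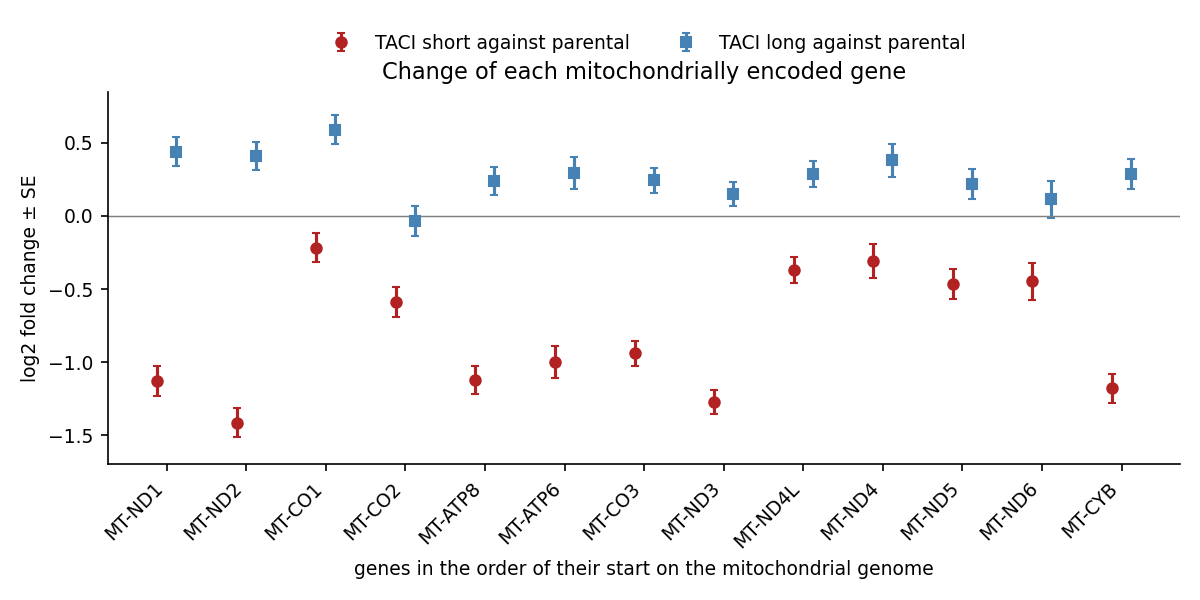
Log2 fold change ± SE (edgeR, TMM scaling) of each mitochondrially encoded gene in TACI short against the parental line (circles) and in TACI long against the parental line (squares), with genes in the order of their start. In TACI short the values lie between -1.42 (MT-ND2) and -0.22 (MT-CO1); in TACI long they lie between -0.03 (MT-CO2) and 0.59 (MT-CO1).

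Along the genome the changes in TACI short showed no steady trend. MT-ND1 and MT-ND2 near the start and MT-CYB at the end were among the lowest, while MT-CO1 and the stretch from MT-ND4L to MT-ND6 changed less. The 6 genes annotated with an incomplete stop codon had a median log2 change of -1.15 in TACI short against the parental line, from -1.42 to -0.31. The 7 annotated with a complete one had a median of -0.47, from -1.12 to -0.22. MT-ND4 was the exception among the 6, and MT-ATP8 and MT-ATP6 lay with them among the 7. MT-ATP8 shares a transcript with MT-ATP6, and MT-ND4L with MT-ND4. The split therefore follows annotated codons and does not sort transcripts by their ends. It is a description of 13 genes, read after their values were known.

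Ratios within a library do not depend on how libraries are scaled, and they separated the groups more sharply than the levels. For every 100 counts of MT-CO1, MT-ND2 had 14.4, 14.5 and 15.1 counts in TACI short, 30.1, 30.04 and 28.9 in TACI long, and 34.5, 33.2 and 33.4 in the parental line. MT-CYB had 21.3, 21.2 and 22.03 counts per 100 of MT-CO1 in TACI short, 34.4, 34.3 and 33.4 in TACI long, and 42.3, 42.04 and 41.7 in the parental line. For MT-CO3 the values were 44.2, 42.99 and 43.2 in TACI short, 57.1, 56.9 and 54.9 in TACI long, and 73.2, 71.6 and 70.4 in the parental line. In these 3 ratios both TACI lines were below the parental line without overlap, and TACI short was furthest from it. Against the parental line, MT-CO1 itself had the greatest rise of any mitochondrial gene in TACI long (log2 change 0.59) and the smallest change in TACI short (-0.22). MT-ND2, MT-CYB and MT-CO3 were higher in TACI long than in the parental line (0.41, 0.29 and 0.24). Their ratios were lower there because MT-CO1 rose more. The ratio of MT-ND4 to MT-CO1 moved less, at 74.7, 76.8 and 73.7 in TACI short, 70.03, 68.6 and 68.8 in TACI long, and 79.8, 78.7 and 81.3 in the parental line. Here too the groups did not overlap, and TACI long was furthest from the parental line. The ratios of the TACI short libraries lay close together, and the part of the raised myeloid markers in them was not tested.

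Per kilobase of gene length, MT-CO3 led in TACI long at 5594 CPM per kb and in the parental line at 4733. In TACI short MT-CO1 led at 3161 CPM per kb, with MT-CO2 at 2882, MT-CO3 at 2699 and MT-ND4 at 2657. MT-ND5 was lowest in TACI long and in the parental line, at 1034 and 891 CPM per kb. In TACI short MT-ND2 was lowest at 686 CPM per kb, next to MT-ND5 at 706.

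Parts of the nuclear genome are old copies of mitochondrial genes, and reads can fall on either. The 393 such copies in the files, of which 8 reached 1 CPM in some library, summed to 683, 782 and 756 CPM in TACI short, 1578, 1314 and 1368 CPM in TACI long, and 922, 1108 and 1220 CPM in the parental line. MTCO1P12 and MTATP6P1, on chromosome 1, held most of this. MTCO1P12 averaged 455 ± 30.2 CPM in TACI short, 736 ± 77.02 CPM in TACI long and 509 ± 52.2 CPM in the parental line, and MTATP6P1 averaged 194 ± 9.69 CPM in TACI short, 469 ± 41.9 CPM in TACI long and 412 ± 68.6 CPM in the parental line (SD, n = 3 each). How the submitters' counting treated reads that fit both places is not given in the sources used here. Levels of the matching mitochondrial genes are therefore uncertain by an amount that the levels of the copies do not bound.

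The rises in TACI long were less secure than the falls in TACI short. MT-CO1, MT-ND1, MT-ND2, MT-ND4, MT-ND4L, MT-CYB and MT-CO3 were the 7 called in TACI long against the parental line. MT-ND1, at 0.44 ± 0.10 on the log2 scale (edgeR adjusted p = 0.00758), came next to MT-CO1, the only one of the 7 to pass 1.5-fold, as 6.78% of all genes did. Parental replicate 1 was the lowest parental library for all 13 genes and replicate 3 the highest for 12. The count of 7 became 12 without parental replicate 3, 3 without TACI short replicate 3 and 4 with column totals alone. MT-ND4, MT-ND4L, MT-CYB and MT-CO3 lost their call in some of these alternatives.

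Summed over the 13 genes, mitochondrial transcripts made up 17584, 20564 and 19203 CPM in TACI short, 37673, 32300 and 33241 CPM in TACI long, and 23663, 27573 and 30549 CPM in the parental line. TACI short was lowest and TACI long highest without overlap. The 103 nuclear genes summed to 13221, 12845 and 13557 CPM in TACI short, 14971, 14534 and 14692 CPM in TACI long, and 15000, 14422 and 14309 CPM in the parental line. Here TACI short was lower than both others, which overlapped. The log2 ratio of the mitochondrial to the nuclear sum averaged 0.53 ± 0.14 in TACI short, 1.22 ± 0.10 in TACI long and 0.90 ± 0.22 in the parental line (SD, n = 3 each). TACI short replicate 2, at 0.68, lay above parental replicate 1, at 0.66, so these groups overlapped, while both lay below all TACI long libraries. The titles give replicate numbers but state no pairing between lines. Libraries of the same number deviated together in TACI short and the parental line. However, TACI short 2 correlated more with parental 3 (0.232) than with parental 2 (0.213). TACI short 3 likewise correlated more with parental 2 (0.194) than with parental 3 (0.177). Taken by number, the ratio was lower in TACI short in 3 of 3 pairs, at 0.41, 0.68 and 0.50 in TACI short and 0.66, 0.94 and 1.09 in the parental line.

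**Figure D3:**
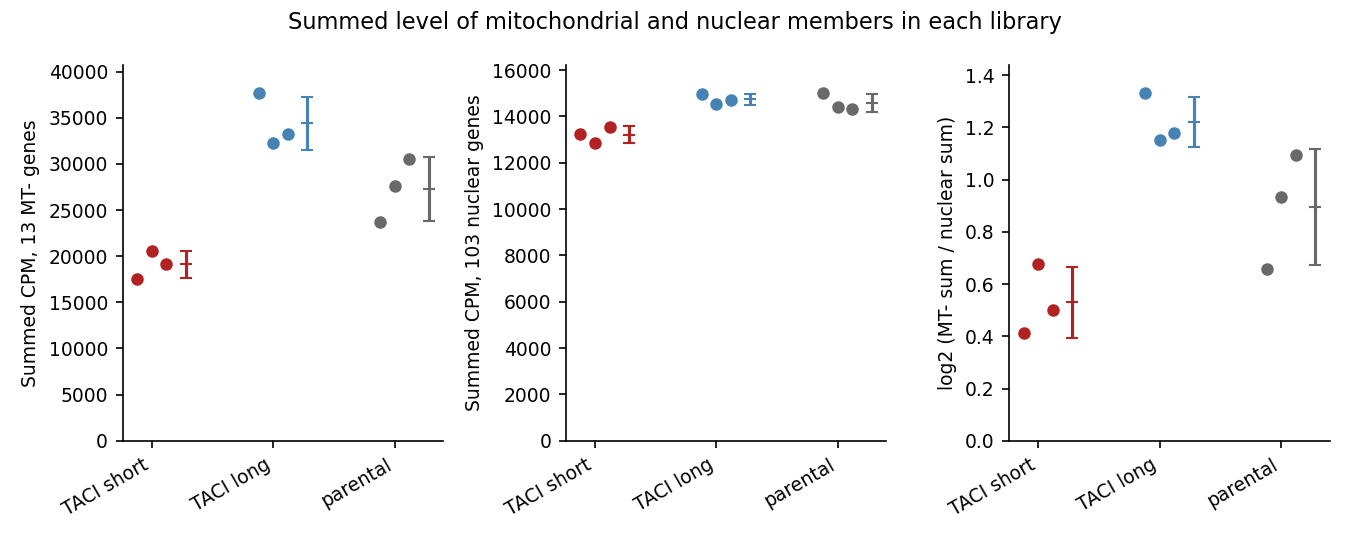
Summed CPM of the 13 mitochondrial genes, summed CPM of the 103 nuclear genes and the log2 ratio of these sums, for each TACI short, TACI long and parental library (points), with group mean ± SD (bars). TACI short is lowest in each panel by its mean, and the parental ratios run from 0.66 to 1.09.

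By complex, the mean ratio of TACI short lay furthest from both other groups for complex III and next for complex V. The mean log2 ratio of mitochondrial to nuclear sum for complex III was -0.28 ± 0.13 in TACI short, 0.88 ± 0.10 in TACI long and 0.64 ± 0.22 in the parental line (SD, n = 3 each). For complex V it was -2.04 ± 0.13 in TACI short, -1.01 ± 0.10 in TACI long and -1.31 ± 0.22 in the parental line. In these complexes no TACI short library reached the parental range. For complex I the means were 1.24 ± 0.15 in TACI short, 1.90 ± 0.10 in TACI long and 1.57 ± 0.22 in the parental line, and for complex IV 1.94 ± 0.13 in TACI short, 2.47 ± 0.09 in TACI long and 2.20 ± 0.22 in the parental line. In complexes I and IV TACI short and the parental line overlapped as groups. Each TACI short library lay below the parental library of the same number, a pairing that the titles do not state.

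The nuclear genes fell together in TACI short, by smaller steps. Against the parental line 75 of 95 fell and 6 rose, with a median log2 change of -0.28, and 6 falls and 2 rises reached 1.5-fold. Of all genes tested, 31.1% were called lower and 31.5% higher, and at 1.5-fold 7.7% lower and 18.5% higher. Against TACI long 76 fell and 9 rose, with a median of -0.32, beside 33.6% lower and 35.2% higher among all genes, and 9 falls and 2 rises reached 1.5-fold, beside 11.1% and 23% of all genes. The 2 rises of at least 1.5-fold were SDHAF4 and COX6B2, and COX6B2 had too few counts for its levels to be ranked. In TACI long against the parental line 31 rose and 16 fell, with a median of 0.04, beside 25.2% higher and 25.9% lower among all genes and a median of 0. None of those 31 rises reached 1.5-fold, and of the falls only SDHAF4 did (10.7% of all genes). The 31 rises also depended on parental replicate 3, without which they numbered 19. The 6 rises in TACI short against the parental line numbered 3 without parental replicate 2 or without parental replicate 3.

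The scaling bears on these counts, because TACI short libraries had larger TMM factors (1.03 to 1.096) than the other 6 (0.962 to 0.980). With column totals alone the median of all genes moved to 0.155 in TACI short against the parental line, and 6873 genes were called higher and 3771 lower, against 5256 and 5179 with TMM. The nuclear members then numbered 60 lower and 9 higher, with a median of -0.15, and the mitochondrial members had a median of -0.81 with 9 called lower. Against TACI long, column totals alone moved the median of all genes to 0.176, and 62 nuclear members were lower and 13 higher. Without TACI short replicates 2 and 3, 83 of the 92 members called against the parental line kept their call, 8 of the 11 mitochondrial ones included.

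**Figure D4:**
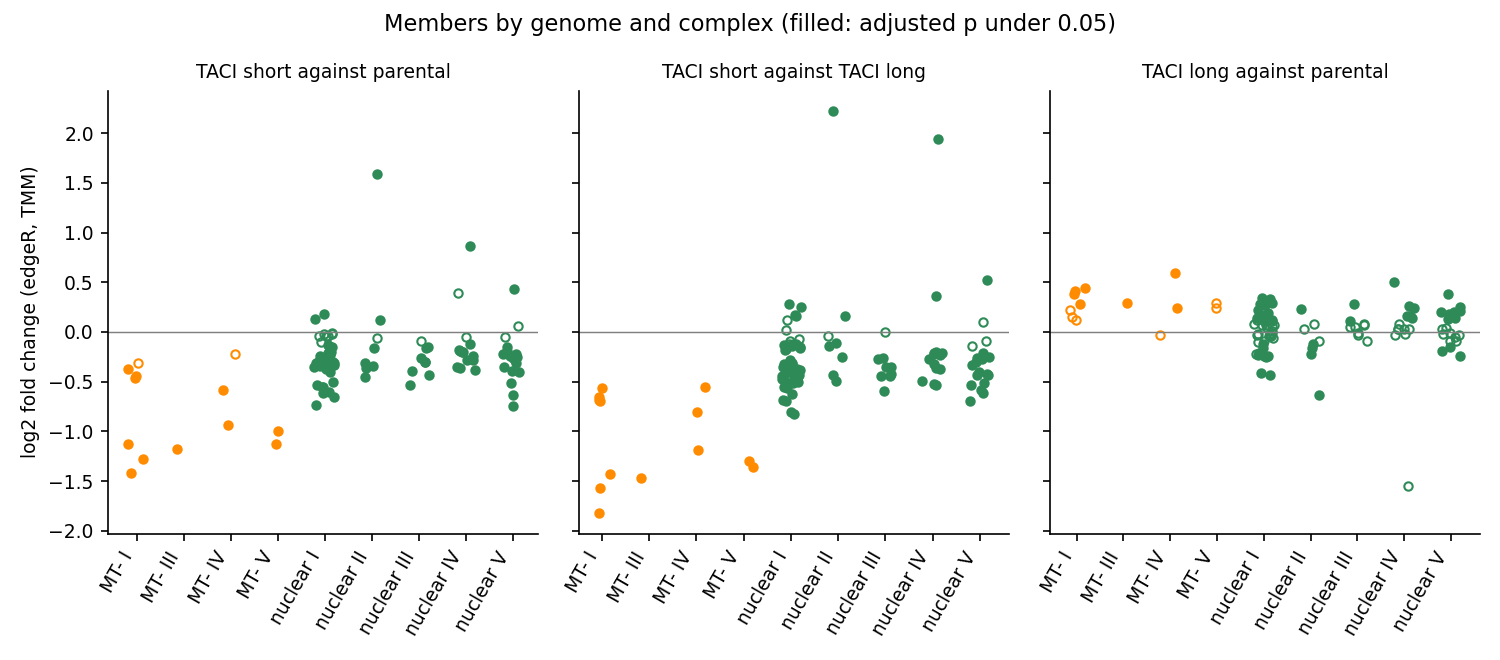
Log2 fold change of each tested member in the 3 comparisons, arranged by genome and complex (MT- for mitochondrial genes in orange, nuclear genes in green); filled points have an adjusted p under 0.05. In both TACI short panels mitochondrial genes reach further below 0 than nuclear ones, whose medians are -0.28 and -0.32; SDHAF4 is the nuclear complex II point near the top, at 1.59 and 2.23.

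Complex I, the NADH dehydrogenase, had 45 nuclear members tested. In TACI short against the parental line 35 fell (77.8%, beside 31.1% of all genes) and 2 rose (4.44%, beside 31.5%), with a median of -0.28. The furthest falls were in assembly factors: NDUFAF6 changed by -0.73 ± 0.06 and NDUFAF8 by -0.66 ± 0.05 on the log2 scale. NDUFAF8 had 74.8, 72.3 and 72.8 CPM in TACI short, 118, 118 and 119.6 CPM in TACI long and 109.8, 105 and 103 CPM in the parental line (edgeR adjusted p = 1.48e-11 for TACI short against the parental line). TACI short was far below the others, and TACI long was above the parental line without overlap. NDUFS4, an accessory subunit mutated in Leigh syndrome, went the other way, with 17.5, 18.4 and 19.4 CPM in TACI short, 19.1, 18.6 and 18.2 CPM in TACI long and 15.2, 14.3 and 15.002 CPM in the parental line. Both TACI lines lay above the parental line, with log2 changes of 0.18 ± 0.06 in TACI short (edgeR adjusted p = 0.0102) and 0.33 ± 0.06 in TACI long (adjusted p = 6.40e-05). The call in TACI short was lost with no filter, without parental replicate 2, without parental replicate 3 and without TACI short replicates 2 and 3 together.

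In TACI long 14 of the 45 complex I genes were higher and 9 lower than in the parental line, 31.1% and 20% of them beside 25.2% and 25.9% of all genes. NDUFV1, which binds FMN and accepts electrons from NADH, had 239, 225 and 231 CPM in TACI short, 189, 188 and 193 CPM in TACI long and 263, 251 and 259 CPM in the parental line. TACI long was lowest and TACI short lay between, with log2 changes against the parental line of -0.43 ± 0.05 in TACI long (edgeR adjusted p = 2.71e-08) and -0.28 ± 0.05 in TACI short (adjusted p = 1.21e-05). NDUFB3, a small membrane-arm subunit, rose in TACI long, with 69.6, 71.2 and 76.2 CPM in TACI short, 98.7, 95.9 and 97.3 CPM in TACI long and 79.2, 75.8 and 75.7 CPM in the parental line. Its change in TACI long was 0.34 ± 0.05 (adjusted p = 1.07e-06), and every TACI long library lay above both other groups. NDUFAF7, which methylates a core subunit during assembly, was lower in TACI long, by -0.41 ± 0.06 (adjusted p = 9.97e-06).

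Complex II oxidises succinate and also belongs to the citric acid cycle. Its sum over 8 genes moved little, at 735, 713 and 731 CPM in TACI short, 715, 709.7 and 718 CPM in TACI long, and 761, 737 and 734 CPM in the parental line. SDHA, the flavoprotein that binds succinate, changed by -0.16 ± 0.04 in TACI short against the parental line, and SDHB, the iron-sulphur subunit, by -0.34 ± 0.05. The membrane anchors diverged. SDHC had 101, 99.4 and 103 CPM in TACI short, 99.8, 97.7 and 101 CPM in TACI long and 86.4, 84.01 and 84.2 CPM in the parental line, and SDHD had 65.8, 61.4 and 67.2 CPM in TACI short, 84.3, 78.2 and 78.3 CPM in TACI long and 78.2, 74.3 and 76.1 CPM in the parental line. SDHC was higher in both TACI lines, by 0.12 ± 0.04 in TACI short (edgeR adjusted p = 0.0188) and 0.23 ± 0.04 in TACI long (adjusted p = 9.32e-05), whereas SDHD was lower in TACI short, by -0.36 ± 0.05 (adjusted p = 2.05e-06). With column totals alone SDHA changed by -0.032 (adjusted p = 0.290) in TACI short against the parental line, and its call was lost. The call of SDHC in TACI short was lost when any parental library, TACI long replicate 1 or 3 or TACI short replicate 1 was left out and with no filter, and between TACI short and TACI long the changes of SDHA and SDHC turned in sign with column totals alone.

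SDHAF4, an assembly factor that binds the flavinated SDHA before it joins SDHB, gave the largest rise of any member. It had 8.55, 7.66 and 8.85 CPM in TACI short, 1.80, 1.71 and 1.39 CPM in TACI long and 2.33, 2.69 and 2.61 CPM in the parental line. The groups were fully apart, with TACI short highest and TACI long lowest. The log2 change was 1.59 ± 0.12 in TACI short against the parental line (edgeR adjusted p = 1.29e-10), 2.23 ± 0.13 against TACI long (adjusted p = 4.46e-13) and -0.64 ± 0.13 in TACI long against the parental line (adjusted p = 0.000320). SDHAF4 levels were close together among the TACI short libraries, and the part of the raised myeloid markers in this rise was not tested.

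Complex III passes electrons from ubiquinol to cytochrome c. Of 9 nuclear members, 8 fell in TACI short against the parental line (88.9%, beside 31.1% of all genes). There 0 rose, beside 31.5% of all genes, and the median was -0.30. UQCRQ, a small subunit bound next to cytochrome b, had 85.6, 83.8 and 92.3 CPM in TACI short, 123, 119 and 119 CPM in TACI long and 117, 119 and 110.3 CPM in the parental line. TACI short lay below the other groups, with a log2 change of -0.53 ± 0.05 against the parental line (edgeR adjusted p = 1.49e-09). UQCRFS1, the Rieske iron-sulphur protein, changed by -0.44 ± 0.05 (adjusted p = 1.94e-08). In TACI long 2 members rose, 22.2% of the 9 beside 25.2% of all genes. These were UQCR10, by 0.28 ± 0.06 (adjusted p = 0.000975), and UQCRB, by 0.11 ± 0.04 (adjusted p = 0.0359). The call of UQCRB was lost with no filter, without any TACI long library in turn and without parental replicate 2 or 3.

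Complex IV, cytochrome c oxidase, had 14 nuclear members tested. In TACI short against the parental line 11 fell (78.6%, beside 31.1% of all genes) and 1 rose (7.14%, beside 31.5%). In TACI long 6 rose (42.9%, beside 25.2% of all genes) and 0 fell (beside 25.9%). The paralogs of complex IV were used unequally. COX4I1, COX6A1, COX6B1, COX7A2, COX7B and COX8A had 86.7 to 479 CPM in every library, while their partners COX4I2, COX6A2, COX7A1, COX7B2 and COX8C had at most 5 counts. COX6B2, the testis partner of COX6B1, had 0 to 13 counts per library, too few for its levels to be ranked. COX7A2L, which takes part in joining complexes III and IV into supercomplexes, had 106, 101 and 106 CPM in TACI short, 139.9, 138 and 138 CPM in TACI long and 118, 116 and 114 CPM in the parental line. TACI short was lowest and TACI long highest without overlap, with changes against the parental line of -0.28 ± 0.04 in TACI short (edgeR adjusted p = 8.01e-06) and 0.26 ± 0.04 in TACI long (adjusted p = 3.01e-05).

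NDUFA4, a subunit of complex IV despite its name, and its paralog NDUFA4L2, a hypoxia-responsive gene reported to lower complex I activity, moved in opposite directions in TACI short. NDUFA4 had 211, 205 and 224 CPM in TACI short, 292, 274 and 279 CPM in TACI long and 245, 238 and 232 CPM in the parental line. NDUFA4L2 had 12.8, 13.04 and 11.4 CPM in TACI short, 8.91, 8.40 and 9.11 CPM in TACI long and 6.15, 6.47 and 6.07 CPM in the parental line. The 3 groups were apart for both genes: TACI short was lowest for NDUFA4 and highest for NDUFA4L2. NDUFA4L2 changed by 0.86 ± 0.08 in TACI short against the parental line (edgeR adjusted p = 2.69e-09) and by 0.50 ± 0.08 in TACI long (adjusted p = 1.77e-05), while NDUFA4 changed by -0.29 ± 0.05 (adjusted p = 1.20e-05) and 0.24 ± 0.05 (adjusted p = 0.000135). NDUFA4L2 stayed a minor transcript, with at most 13.04 CPM in a library.

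Complex V had 19 nuclear members tested. In TACI short against the parental line 16 fell (84.2%, beside 31.1% of all genes) and 1 rose (5.26%, beside 31.5%). The exception lay among the genes for subunit c, the protein of the rotating membrane ring. ATP5MC1, ATP5MC2 and ATP5MC3 are known to encode the same mature protein with different import sequences. The 300 bases around the start of ATP5MC1 (chr17:48892537-48892836, plus strand), of ATP5MC2 (chr12:53676034-53676333, minus strand) and, for the rising SDHAF4, of its gene (chr6:70566680-70566979, plus strand) are given from RefSeq (GRCh38.p14). ATP5MC2 and SDHAF4 rose while most nuclear members of their complexes fell, and ATP5MC1 had the largest fall among the nuclear members of complex V. They run from 250 bases before to 50 bases after the start, and capitals mark a match to GCGCANGCG, a motif of the transcription factor NRF1, or to its reverse complement.
ATP5MC1: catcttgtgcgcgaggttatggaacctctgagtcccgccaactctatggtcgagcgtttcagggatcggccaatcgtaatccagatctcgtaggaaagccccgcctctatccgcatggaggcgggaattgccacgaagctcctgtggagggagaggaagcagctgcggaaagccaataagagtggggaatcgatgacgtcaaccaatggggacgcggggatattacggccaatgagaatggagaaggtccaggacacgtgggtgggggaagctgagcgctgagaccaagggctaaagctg
ATP5MC2: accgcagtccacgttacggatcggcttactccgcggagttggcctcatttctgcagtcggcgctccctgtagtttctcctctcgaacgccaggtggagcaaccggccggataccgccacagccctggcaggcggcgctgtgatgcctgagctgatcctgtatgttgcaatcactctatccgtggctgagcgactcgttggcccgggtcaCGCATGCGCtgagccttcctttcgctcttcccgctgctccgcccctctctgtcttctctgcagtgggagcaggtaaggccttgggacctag
SDHAF4: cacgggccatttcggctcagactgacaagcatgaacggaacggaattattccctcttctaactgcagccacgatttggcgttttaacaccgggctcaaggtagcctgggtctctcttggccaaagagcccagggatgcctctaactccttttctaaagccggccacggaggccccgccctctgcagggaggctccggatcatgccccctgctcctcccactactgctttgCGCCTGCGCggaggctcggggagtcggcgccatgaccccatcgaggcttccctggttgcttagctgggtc

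ATP5MC1 had 148, 136 and 152 CPM in TACI short, 203, 198 and 199 CPM in TACI long and 234, 219 and 216 CPM in the parental line. ATP5MC2 had 128, 128 and 130.4 CPM in TACI short, 84.8, 81.02 and 80.3 CPM in TACI long and 88.5, 87.2 and 87.5 CPM in the parental line. TACI short was lowest for the first gene and highest for the second, without overlap. ATP5MC3 had 535, 563 and 582 CPM in TACI short, 499, 466 and 471 CPM in TACI long and 588, 555 and 559 CPM in the parental line, with TACI long lowest. In TACI short against the parental line the log2 changes were -0.74 ± 0.05 for ATP5MC1 (edgeR adjusted p = 1.50e-10), 0.43 ± 0.04 for ATP5MC2 (adjusted p = 6.86e-09) and -0.15 ± 0.04 for ATP5MC3 (adjusted p = 0.00621). The call of ATP5MC3 was lost with upper-quartile factors (-0.066, adjusted p = 0.171) and with column totals alone (-0.019, adjusted p = 0.669). In TACI long against the parental line ATP5MC1, ATP5MC2 and ATP5MC3 changed by -0.16 ± 0.05 (adjusted p = 0.0162, lost without parental replicate 1 and without TACI long replicate 2 or 3), -0.09 ± 0.04 (adjusted p = 0.0698, not called) and -0.24 ± 0.04 (adjusted p = 7.55e-05). ATP5MC2 was called lower in TACI long under 8 alternatives, among them column totals alone (-0.097, adjusted p = 0.0172).

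The mix of subunit c transcripts therefore differed more than their sum. ATP5MC2 supplied 15.8, 15.5 and 15.1% of their counts in TACI short, 10.8, 10.9 and 10.7% in TACI long, and 9.72, 10.1 and 10.2% in the parental line. ATP5MC1 supplied 18.3, 16.5 and 17.6% in TACI short, 25.8, 26.6 and 26.5% in TACI long, and 25.7, 25.4 and 24.99% in the parental line. The sum of the 3 genes was 834 ± 26.8 CPM in TACI short, 761 ± 22.7 CPM in TACI long and 878 ± 28.3 CPM in the parental line (SD, n = 3 each), and TACI short and the parental line overlapped. These genes have processed pseudogenes, so reads may be split between copies.

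ATP5IF1, which blocks the reverse, ATP-splitting turn of complex V, had 176, 168 and 171 CPM in TACI short, 258, 248 and 255 CPM in TACI long and 204, 189 and 189.9 CPM in the parental line. TACI long was highest and TACI short lowest without overlap. It rose by 0.39 ± 0.05 in TACI long (edgeR adjusted p = 2.39e-07) and changed by -0.31 ± 0.05 in TACI short (adjusted p = 4.25e-06) against the parental line. ATP5MD, a small membrane subunit now named ATP5MK that helps complex V form pairs, had 78.3, 79.04 and 86.5 CPM in TACI short, 115, 112 and 113 CPM in TACI long and 118, 113 and 116 CPM in the parental line. Only TACI short stood apart, with a change of -0.64 ± 0.05 (adjusted p = 3.98e-11).

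**Figure D5:**
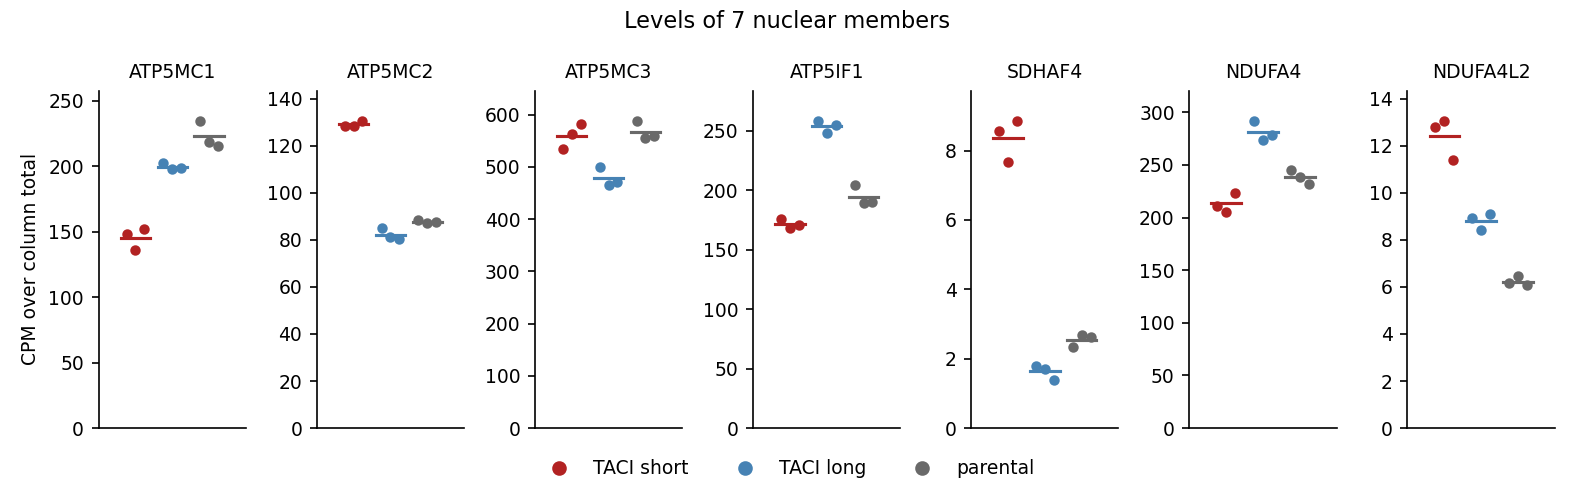
Level in CPM over the column total of ATP5MC1, ATP5MC2, ATP5MC3, ATP5IF1, SDHAF4, NDUFA4 and NDUFA4L2 in 3 TACI short, 3 TACI long and 3 parental libraries (points; lines are group means, and each axis starts at 0). ATP5MC2, SDHAF4 and NDUFA4L2 are highest in TACI short, while ATP5MC1, ATP5IF1 and NDUFA4 are lowest there.

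The promoters of the nuclear members were searched on both strands for 3 motifs of factors known to act on respiratory genes. Of the 101 nuclear members that are not readthrough genes, 81 matched a promoter entry, and ATP5MC3, NDUFA4 and NDUFA4L2 were not matched. The NRF1 motif GCGCANGCG was in 32.1% of these 81 promoters and in 11.1% of 15246 promoters of protein-coding genes of the same length. The ETS motif CCGGAAGT was in 13.6% against 6.32%, and the YY1 motif AAGATGGCG in 9.88% against 2.81%. None of these motifs contains another, and a match is not a binding site. Among tested members the median log2 change in TACI short against the parental line was -0.28 for 25 genes with the NRF1 motif and -0.28 for 53 without it.

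Other mitochondrial genes, from lists chosen with earlier results of these data known, are given for context. Their counts are to be read against all genes tested, of which 31.5% rose and 31.1% fell in TACI short against the parental line, and 25.2% rose and 25.9% fell in TACI long. Of 23 genes of mitochondrial RNA processing and stability, 0 rose and 21 fell in TACI short against the parental line, with a median of -0.49, and 3 rose and 15 fell in TACI long, with a median of -0.17. PNPT1, a subunit of the enzyme that degrades mitochondrial RNA, had 99.01, 99.3 and 106 CPM in TACI short, 131, 139 and 136 CPM in TACI long and 154, 158 and 156 CPM in the parental line, and TRMT10C, a subunit of the enzyme that cuts the tRNAs free at their 5′ ends, had 35.6, 35.5 and 37.1 CPM in TACI short, 47.1, 47.1 and 46.8 CPM in TACI long and 53.9, 53.6 and 51.9 CPM in the parental line. Both were lowest in TACI short and highest in the parental line, with changes in TACI short of -0.75 ± 0.04 (edgeR adjusted p = 6.78e-13) and -0.69 ± 0.05 (adjusted p = 8.23e-12). SLIRP, an RNA-binding protein that stabilises mitochondrial mRNAs, was lower in TACI short than in TACI long, by -0.79 ± 0.05 (adjusted p = 6.30e-13).

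Of 22 genes that maintain and transcribe the mitochondrial genome, 5 rose and 14 fell in TACI short against the parental line, with a median of -0.22. In TACI long 4 rose and 6 fell, shares of 18.2% and 27.3% beside 25.2% and 25.9% of all genes. TFB2M, the initiation factor of mitochondrial transcription, had 20.5, 20.2 and 21.4 CPM in TACI short, 34.01, 32.9 and 35.2 CPM in TACI long and 36.6, 35.2 and 34.5 CPM in the parental line, and TWNK, the replicative helicase, had 37.96, 35.9 and 36.3 CPM in TACI short, 56.9, 59.96 and 60.1 CPM in TACI long and 59.5, 58.3 and 59.5 CPM in the parental line. TACI short was lowest for both and the other groups overlapped, with changes against the parental line of -0.90 ± 0.05 (edgeR adjusted p = 8.33e-13) and -0.81 ± 0.05 (adjusted p = 1.25e-12). TFB1M, the related methyltransferase of the small ribosomal RNA, ran against them, with 48.1, 44.8 and 44.3 CPM in TACI short, 22.4, 21.6 and 21.8 CPM in TACI long and 31.1, 30.5 and 32.3 CPM in the parental line. Its groups were apart, with TACI short highest and TACI long lowest, and the change between these lines was 0.93 ± 0.05 (adjusted p = 4.15e-13).

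Of 78 proteins of the mitochondrial ribosome, 3 rose and 68 fell in TACI short against the parental line, with a median of -0.41. In TACI long 13 rose and 20 fell, shares of 16.7% and 25.6% beside 25.2% and 25.9% of all genes. MRPL1, MRPL2 and MRPS7 changed furthest in TACI short, by -1.01 ± 0.06, -0.95 ± 0.05 and -0.92 ± 0.05 (edgeR adjusted p = 5.08e-11, 4.43e-13 and 1.79e-13). Of 15 genes used as markers of mitochondrial mass, 1 rose and 14 fell in TACI short, and 1 rose and 8 fell in TACI long. TOMM40, the channel of protein import, had 193, 176 and 183 CPM in TACI short, 304, 310.0 and 317 CPM in TACI long and 353, 335 and 347 CPM in the parental line, a change of -1.03 ± 0.05 in TACI short (adjusted p = 1.73e-14), with all groups apart.

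Of 31 genes of the citric acid cycle and the electron carriers, 3 rose and 20 fell in TACI short against the parental line, and 6 rose and 9 fell in TACI long. CYCS, cytochrome c, had 387, 368 and 392 CPM in TACI short, 542, 531 and 537 CPM in TACI long and 559.6, 536 and 539.6 CPM in the parental line. TACI short was lowest and the other groups overlapped, with a change of -0.64 ± 0.05 (edgeR adjusted p = 2.36e-11). Of 47 assembly factors of the complexes, 12 of them members, 9 rose and 32 fell in TACI short, and 16 rose and 17 fell in TACI long. COA7, an assembly factor of complex IV, and TMEM70, of complex V, changed by -0.82 ± 0.05 and -0.77 ± 0.06 in TACI short (adjusted p = 4.93e-12 and 4.47e-10).

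Of 13 regulators of mitochondrial biogenesis tested, 3 rose and 8 fell in TACI short against the parental line, and 5 rose and 4 fell in TACI long. PPARGC1B, a coactivator of respiratory genes in the PGC-1 family, had 18.5, 18.8 and 16.97 CPM in TACI short, 17.5, 17.5 and 16.01 CPM in TACI long and 25.1, 31.2 and 29.2 CPM in the parental line. Both TACI lines were below the parental line, with changes of -0.78 ± 0.07 in TACI short (edgeR adjusted p = 1.87e-09) and -0.75 ± 0.07 in TACI long (adjusted p = 6.96e-09). Its paralog PPARGC1A had 0.585, 3.08 and 2.10 CPM in TACI short, 0.425, 0.395 and 0.301 CPM in TACI long and 0.217, 0.367 and 0.321 CPM in the parental line, highest in the libraries with raised myeloid markers. Its call in TACI short against the parental line (adjusted p = 0.00462) was lost without those libraries (adjusted p = 0.113).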

How the data were processed

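Each of the 9 libraries came with raw read counts per gene, deposited by the authors without normalization, for 57500 Ensembl genes. STAR 2.4.0h, HTSeq, FastQC and build hg38 are named in the submitters' processing notes, while the deposited count tables have the column layout of featureCounts. The annotation release, the strand setting and the treatment of reads with several matches are not given in the sources used here. The library kit was Nextera XT, per the labels, which does not mark strand. Gene symbols and types were taken from GENCODE 29, which held 56898 of the genes.

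Genes were kept by filterByExpr (minimum count 10, minimum total 15), scaled by TMM and tested with edgeR 4.0.16 (R 4.3.3; glmQLFit and glmQLFTest, robust quasi-likelihood, all 9 libraries in the same fit), with 6 residual degrees of freedom and Benjamini-Hochberg adjustment over 16672 genes. The standard error of a log2 fold change is its absolute value over the square root of F. The fit was tested on simulated data in which far fewer genes changed than were called here. That test therefore does not cover the scaling of these libraries. DESeq2 1.42.0, other scalings, filters and subsets of libraries were alternatives. Summed levels and ratios carry no test. No replicates were copies, with chi-square per degree of freedom from 2.45 to 18.2. Precision is limited by counting and by 3 libraries per group.

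Same-numbered TACI short and parental libraries deviated together from their group means (correlations 0.434, 0.213 and 0.177). However, TACI short 2 correlated more with parental 3 (0.232) and TACI short 3 more with parental 2 (0.194). The fit behind the calls had no term for the replicate number, and results with a replicate block are given where calls change. For the other comparisons at least 1 correlation between same-numbered libraries was negative. The genes, the lists and the rule for named genes were chosen with earlier results of these data known. The rule names the mitochondrial genes, SDHA to SDHD, the largest called changes per complex among genes of average log2 CPM of at least 1, paralog sets, ATP5IF1, and up to 3 called genes per other list and comparison. Of 179 named results the text prints a part. Promoters are from RefSeq (GRCh38.p14), 250 bases before to 50 after the start. Figures were drawn with matplotlib 3.10.9.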

Additional observations from a re-analysis of the deposited data

How the results depend on the processing

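Of 179 named results, 140 kept their direction and their side of the threshold under all 20 alternatives run, and 27 of 159 called results lost the call under at least 1. The 2 reversals were SDHC and SDHA in TACI short against TACI long, with log2 changes of 0.02 and 0.086 on column totals alone. In TACI long against the parental line, the 7 mitochondrial rises numbered 4 with upper-quartile factors, 4 with column totals, 4 with a filter of 1 CPM in 3 libraries, 11 with no filter, 3 with the 2 groups compared alone, 3 without TACI short replicates 2 and 3, and 3 to 12 with each library left out in turn. The replicate numbers do not pair these groups. With a replicate block the count was 3, and with the block and only the 2 groups compared it was 0. The 31 nuclear rises there numbered 19 to 35 with each library left out. With a minimum of 1.5-fold, 2 members were called there (1 mitochondrial rise, 0 nuclear rises, 1 nuclear fall). In TACI short against the parental line the 6 nuclear rises numbered 3 with no filter and 3 to 6 with each library left out. At 1.5-fold, 16 members were called there, with 2 nuclear rises and 6 nuclear falls. In TACI short against TACI long that minimum left 22, with 2 nuclear rises (SDHAF4 and the scarcely counted COX6B2) and 9 nuclear falls. The block changed no other call among members of TACI short against the parental line than those of MT-ND6, MT-CO1, MT-ND4 and UQCRC2. Without MT- genes in the column totals the nuclear sum averaged 15262.6 CPM in TACI long and 14987.3 CPM in the parental line. With subunits alone it averaged 12632.0 CPM in TACI short, 14042.9 CPM in TACI long and 13932.9 CPM in the parental line. These sums moved with the column total or the set of genes that defines them. Why the other values moved was not tested. Members with at most 5 counts per library could not be compared at this depth.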

Other observations

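The 22 mitochondrial tRNA genes, which are not part of the comparisons, summed to 131, 162 and 143 CPM in TACI short, 321, 287 and 296 CPM in TACI long, and 169.8, 198 and 209 CPM in the parental line. The groups did not overlap. tRNAs carry no poly(A) tail in their mature form, and what these reads represent was not tested. SIRT1, a deacetylase that acts on regulators of mitochondrial biogenesis, had 49.8, 44.7 and 48.4 CPM in TACI short, 80.2, 77.8 and 77.6 CPM in TACI long, and 58.7, 58.9 and 59.9 CPM in the parental line, and its log2 change between TACI short and TACI long was -0.85 ± 0.05 (edgeR adjusted p = 9.04e-13). RRM2B, a subunit of ribonucleotide reductase that supplies nucleotides to mitochondrial DNA, rose by 0.77 ± 0.05 in TACI long against the parental line (edgeR adjusted p = 2.19e-12).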
